A study of Mus musculus with 18 samples.

Results

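The regions described here are 216 stretches of the mouse genome beside protein-coding genes. In each, a peak of ATF4 immunoprecipitation was called in lists from neurons given 2-deoxyglucose (2-DG) and in none of the 4 control lists used. The regions were selected by the presence of peaks in 8 deposited lists. Of these lists, 4 were from untreated cells (control 1 to 4) and 4 from treated cells (2-DG 1 to 4). Peaks sharing at least 1 bp over the 8 lists were merged, and a merged region was kept if 3 or 4 of the 2-DG lists and no control list had a peak in it. It also had to share at least 1 bp with a window of 2000 bp on either side of either end of a protein-coding gene. The rule took 216 of 35717 merged regions (0.605%), or 216 of the 2603 merged regions at gene ends (8.3%). They fell beside 253 of 21631 protein-coding genes (1.17%). All 4 of the 2-DG lists called 109 of the 216 regions, and the other 107 were called by 3 of them. All 20 chromosomes searched held at least 1.

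The cells were primary immature neurons from mouse embryos of embryonic day 14, cultured for 2 days and then left untreated or given 10 mM 2-DG for 6 h. No genotype or strain is given in the labels. Immunoprecipitated DNA was sequenced with input DNA as its companion, and of 18 samples the 8 inputs were not used here. The labels do not tie the lists to separate cultures, so the spread between them may be technical, and the series design speaks of 3 independent replicates where each treatment has 4 lists.

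ATF4 is a transcription factor of the bZIP family whose protein is made when the initiation factor eIF2 is phosphorylated, the step shared by the arms of the integrated stress response. Paired with a C/EBP protein, it binds the C/EBP-ATF response element (CARE) and switches on genes for amino acid synthesis and uptake, tRNA charging, redox balance and feedback on the response itself. 2-DG is a glucose analogue that cells take up and phosphorylate but cannot carry through glycolysis, and it also disturbs N-linked glycosylation, which stresses the endoplasmic reticulum.

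Some facts of the series bear on every result. In the antibody field, control samples carry the entry none and treated samples the ATF4 antibody, inputs included. The design of the series instead gives 1 antibody to both treatments. A difference in treatment and a difference in antibody therefore cannot be told apart. Control 1 stood apart from the other control lists: left out of the rule, it would itself have touched 40 of the 256 regions then chosen (15.6%), against 1 of 217 for control 2, 7 of 223 for control 3 and 3 of 219 for control 4. The lists held 3461, 3784, 8202 and 6811 distinct peaks in control 1 to 4 and 15240, 7369, 6371 and 5856 in 2-DG 1 to 4. They carry no read counts, so depth is unknown, and a region without a peak in a list is one where none was called, not one shown to be unbound.

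The promoter sequence of 8 of these regions is shown first, because they hold several of the best-known ATF4 targets. In 7 of the 8, the CARE motif also lies within 50 bp of the median summit over the lists. By single list it lay that near in 2 of 4 lists at Jdp2 and in 3 of 4 at Trib3 and Tubb3. The 8 come from the named regions whose promoter window, from 250 bases before to 50 after a gene start, holds CARE. Capitals mark the CARE match, TGATGNAA read on either strand, so that TTACATCA and TTGCATCA are the motif on the opposite strand. Sequences are RefSeq's for GRCm38.p6 (mm10), written 5′ to 3′ along the strand of the gene.
Pck2, chr14:55540117-55540216, plus strand: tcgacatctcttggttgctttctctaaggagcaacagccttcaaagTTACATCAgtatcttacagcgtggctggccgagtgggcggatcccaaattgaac
Trib3, chr2:152344033-152344132, minus strand: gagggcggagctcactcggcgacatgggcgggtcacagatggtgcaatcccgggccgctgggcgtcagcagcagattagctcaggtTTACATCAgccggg
Vldlr, chr19:27216809-27216838, plus strand: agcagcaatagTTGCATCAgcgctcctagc
Plekhh3, chr11:101171469-101171568, minus strand: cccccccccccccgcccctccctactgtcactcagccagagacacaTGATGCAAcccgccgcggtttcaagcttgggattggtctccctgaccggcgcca
Got1, chr19:43524654-43524753, minus strand: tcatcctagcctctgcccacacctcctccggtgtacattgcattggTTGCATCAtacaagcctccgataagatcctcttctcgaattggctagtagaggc
Atf3, chr1:191183390-191183489, minus strand: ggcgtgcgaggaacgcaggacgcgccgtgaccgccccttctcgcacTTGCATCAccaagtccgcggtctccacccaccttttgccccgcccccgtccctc
Jdp2, chr12:85599372-85599401, plus strand: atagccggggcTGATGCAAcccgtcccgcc
Tubb3, chr8:123411445-123411544, plus strand: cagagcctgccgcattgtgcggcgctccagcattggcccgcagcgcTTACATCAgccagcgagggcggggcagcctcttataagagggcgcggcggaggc
The first base of CARE stood at position -103 from the gene start in Pck2, 15 in Trib3, -200 in Vldlr, -150 in Plekhh3, -102 in Got1, -110 in Atf3, -33 in Jdp2 and -62 in Tubb3. Got1 had its summit nearest to the motif, at 4 bp, and Atf3 had its summit farthest away, at 150.5 bp. The Vldlr and Jdp2 stretches lie inside the outermost extent of their genes, downstream of another start. Whether a region falls on an exon or an intron was not analysed here.

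Every list with 2-DG contributed to the choice, and the 4 did so unequally. The regions had a called peak 215 times in 2-DG 1, 212 times in 2-DG 2, 129 times in 2-DG 3 and 201 times in 2-DG 4. By the rule, none of the 4 control lists had one. Of the 107 regions in 3 lists, 87 lacked a peak in 2-DG 3, 15 in 2-DG 4, 4 in 2-DG 2 and 1 in 2-DG 1. The regions in 3 of 4 lists are therefore for the most part those that 2-DG 3 did not call.

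**Figure D1:**
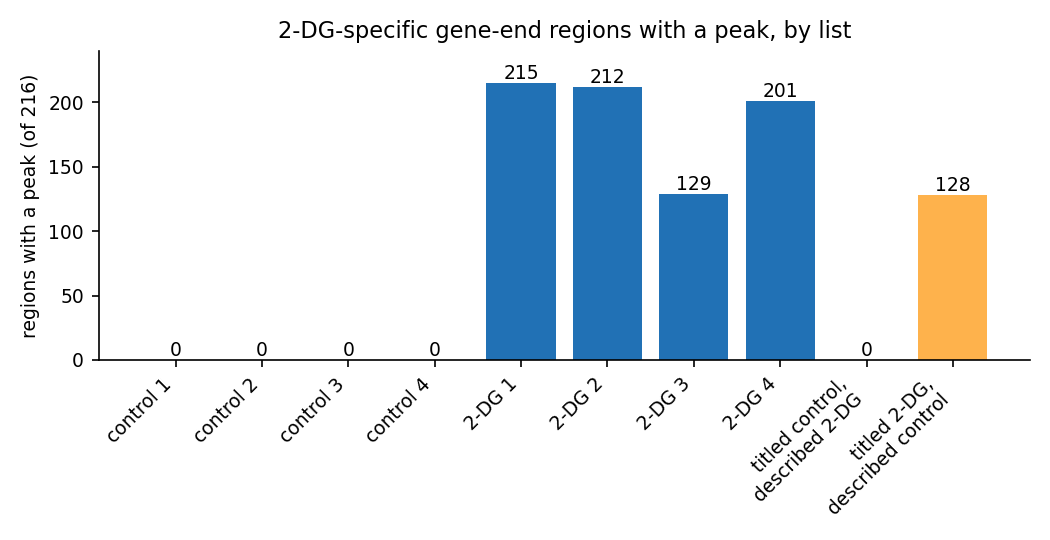
Bars give, for each of the 10 peak lists on the x axis, how many of the 216 regions had a called peak (y axis, regions). They stand at 0 in the 4 control lists, as the rule requires, at 215, 212, 129 and 201 in 2-DG 1 to 4, at 0 in the list titled control and at 128 in the list titled 2-DG.

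Within each list, these regions lay among the higher peaks. The fold enrichment over local background is the authors' own value for each peak and is used here only to describe peaks and rank them within a list. The median fold of the regions was 11.4 in 2-DG 1, where the median over all peaks was 4.33. It was 8.54 against 4.62 in 2-DG 2, 5.87 against 4.89 in 2-DG 3 and 5.97 against 4.65 in 2-DG 4. As ranks, the regions' median percentile of fold was 93.4, 85.6, 75.5 and 73.8 in 2-DG 1 to 4. Their peaks were also wider, with medians of 365, 321.5, 197 and 203 bp, than all peaks of those lists, with medians of 171, 168, 135 and 156 bp. A peak had to recur in 3 lists to be chosen, so these values describe the choice and were not tested.

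The summits lay close together. Over the lists that called a region, the summits spanned a median of 49 bp, and 109 of the 216 regions (50.5%) had all summits within 50 bp. The merged regions themselves were 163 to 1607 bp wide, with a median of 395 bp. Regions in 4 of 4 lists were wider than those in 3 of 4, with medians of 504 and 341 bp, and their median fold was 9.90 against 6.05.

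Among the 109 regions called in all 4 2-DG lists, the fold was highest in 2-DG 1 at 97, in 2-DG 2 at 10, in 2-DG 4 at 2 and in 2-DG 3 at 0. The median folds there were 16.7, 12.4, 6.36 and 7.63 in 2-DG 1 to 4. The order of the regions was similar from list to list: over these 109 regions, Spearman's rho of fold ran from 0.638 (2-DG 1 and 2-DG 3) to 0.841 (2-DG 1 and 2-DG 2). Those correlations are across regions chosen for recurring, and regions are not replicates.

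**Figure D2:**
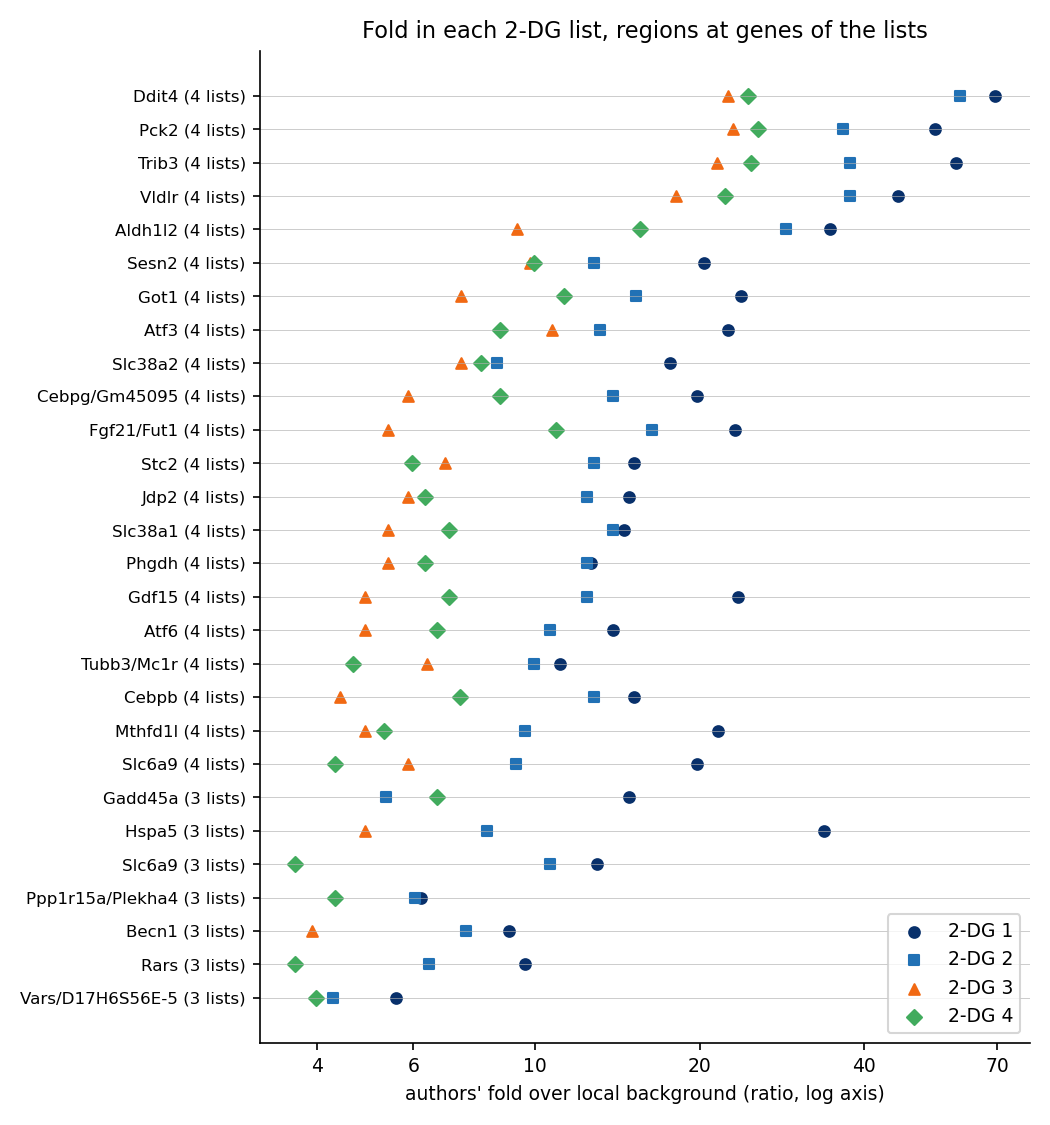
Points give the authors' fold over local background (x axis, a ratio on a log scale) in each 2-DG list for the regions at named genes of the gene lists (y axis, with the number of 2-DG lists that called each). Points of 2-DG 1 lie to the right of the others for most regions, from Ddit4 at 69.3 down to Vars at 5.57.

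The highest-ranked region lay upstream of Ddit4, which encodes REDD1, an inhibitor of the growth kinase complex mTORC1. At chr10:59952255-59953861 it had folds of 69.3, 59.8, 22.5 and 24.6 in 2-DG 1 to 4, with its summit 1118.5 bp before the gene start. All 4 values stood within the top few percent of their lists, with a mean percentile of 99.0. The next was upstream of Rcc2, a regulator of chromosome condensation, at chr4:140699116-140700199, with folds of 71.4, 55.8, 19.6 and 25.2 and its summit 1740 bp before the start. Both regions also had a peak in the list titled 2-DG that the rule did not use, with folds of 21.9 and 19.1.

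The regions ranked next included several that span the gene start. Pck2, the mitochondrial phosphoenolpyruvate carboxykinase, had folds of 53.8, 36.6, 23.0 and 25.5 at chr14:55539718-55540497, with the summit 123.5 bp before the start and 27 bp from the CARE printed above. Trib3, a pseudokinase that restrains AKT and the stress response, had folds of 58.8, 37.7, 21.5 and 24.9 at chr2:152343372-152344514, with the summit 20 bp before the start. Vldlr, a receptor for the guidance protein reelin, had folds of 46.1, 37.7, 18.1 and 22.2, with the summit 10.5 bp from its CARE.

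Other regions of the top 15 lay beside genes with less familiar ties to the stress response. Taf15, an RNA-binding protein of the FET family, had folds of 64.0, 36.6, 16.1 and 25.5, with the summit 661 bp before the start. Tmx3, a protein disulfide isomerase of the endoplasmic reticulum, had 60.9, 42.0, 15.7 and 19.2. Cd82, a tetraspanin, had 36.8, 30.2, 13.2 and 15.9, and its summit lay 2022.5 bp beyond the finish of the gene. It was the member of the 15 whose nearest gene end was a finish, among those with a strand on record.

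Tbl1x, a subunit of the NCoR corepressor complex, had folds of 39.0, 30.2, 12.7 and 15.6. The region beside Plekhh3 and Ccr10, a chemokine receptor gene, had 33.4, 22.8, 16.6 and 13.3. Aldh1l2, the mitochondrial 10-formyltetrahydrofolate dehydrogenase, had 34.6, 28.8, 9.29 and 15.6. The rest of the 15 lay at Gpr141, an orphan receptor gene, at Phf10, a subunit of the BAF chromatin remodelling complex, at Fbxo11, a substrate receptor of a ubiquitin ligase, and at Ppp2r5a, a regulatory subunit of phosphatase 2A. Their folds ran from 26.9 to 41.1 in 2-DG 1 and from 9.29 to 11.7 in 2-DG 3.

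The bottom of the ranking among regions in 4 of 4 lists looked different. Slc4a10, a neuronal sodium bicarbonate transporter gene, had folds of 5.88, 4.62, 5.38 and 5.31. Niban1 had 5.88, 5.34, 5.38 and 4.65. Slc25a28, a mitochondrial iron carrier, had 8.66, 5.69, 3.91 and 5.97, and Uqcrc2, a core subunit of respiratory complex III, had 8.66, 8.89, 3.91 and 3.98. The lowest, beside Echs1, an enzyme of fatty acid oxidation, and Paox, a polyamine oxidase gene, had 10.8, 4.27, 3.91 and 4.98 and a mean percentile of 49.2. Most of these folds lie near the median of all peaks in 2-DG 2 to 4, so the regions in 4 of 4 lists span the ranks from the top percentiles to the middle.

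Gene starts were the usual end. The nearest end was a gene start for 147 and a gene finish for 30 of the 177 regions whose nearest gene has a strand in the promoter table (83.1% starts), and for the other 39 regions the table gives no strand. Over all 2603 gene-end regions, starts made up 60.6%, over those in 1 list only 56.4%, and over the 44 in all 8 lists 54.5%. Regions in 3 or 4 2-DG lists that also had a peak in 1 to 3 control lists, of which there were 102, gave 74.7%. These shares were not tested, since regions are not replicates.

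Summits gathered just before the start. At starts, 77 summits lay upstream and 70 downstream, with a median distance of 506 bp, and 54 were within 250 bp. The 250 bp just upstream of the start held 39 summits, and the 250 bp just downstream 15. No other 250-bp step held more than 13 of the start regions. At gene finishes, 14 summits lay inside the gene and 16 beyond it, with a median distance of 848.25 bp. Over all 216 regions, 69 summits (31.9%) fell within 250 bp of the nearest end, and 73 lay over 1000 bp away. The share within 250 bp was 34.3% for gene-end regions in 3 or 4 2-DG lists with 1 to 3 controls, 20.7% for those in 2 of 4 and no control, and 15.1% for those in 1 list.

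**Figure D3:**
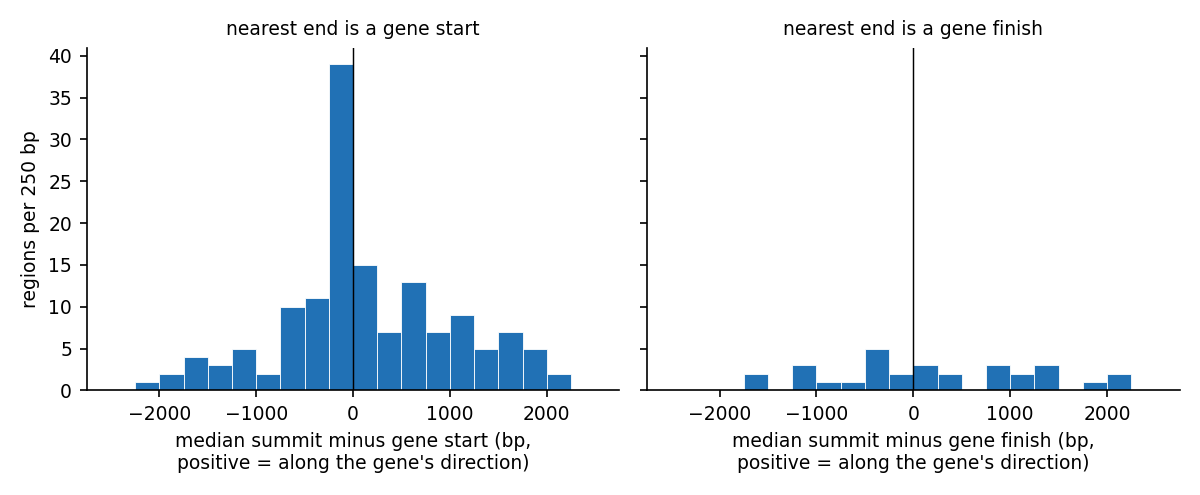
Bars count regions (y axis) per 250 bp of distance between the median summit and the nearest gene end (x axis, bp), on the left for gene starts and on the right for gene finishes. The tallest bar, 39 regions, covers the 250 bp just before the start, and the finishes show no bar of that height.

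Regions in 3 of 4 lists lay closer to the end than those in 4 of 4, with median distances of 450 and 689.5 bp. The share nearest to a start was similar in both sets, 82.9% of 82 and 83.2% of 95. Windows of 2 or more genes were touched by 39 regions, and windows of 2 or more gene starts by 16, so a region may stand beside more than the gene it is named for. Nfib, Slc6a9 and Tenm4 each had 2 of the regions.

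CARE was the motif searched in the promoters that the regions cover. Of the 216 regions, 73 lay on 86 promoter windows of the table, and the sequence of the other 143, Ddit4, Rcc2 and Taf15 among them, was not searched. CARE stood in 26 of the 86 windows (30.2%, exact 95% binomial interval 20.8 to 41.1%), and in 726 of all 21045 promoter windows of protein-coding genes (3.45%). By region, 24 of 73 held it (32.9%, 22.3 to 44.9%). With C at the open base, TGATGCAA, it stood in 12 windows (14.0%) and in 0.851% of all windows. Intervals cover counting error only, and no test was made over windows.

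The share with CARE differed in size between kinds of region. By region it was 13 of 31 (41.9%, 24.5 to 60.9%) for regions in 4 of 4 2-DG lists and 11 of 42 (26.2%, 13.9 to 42.0%) for regions in 3 of 4, and these intervals overlap. By window, gene-end regions in 3 or 4 2-DG lists with 1 to 3 controls gave 13 of 43 (30.2%, 17.2 to 46.1%), the same share as the regions described here. Windows under regions in 2 of 4 2-DG lists and no control gave 5 of 42 (11.9%), and those under regions in a single list 15 of 131 (11.5%, 6.55 to 18.2%). Windows were not matched for base composition. The GC content was 58.8% under the regions and 56.7% over all windows, with the ratio of observed to expected CpG at 0.759 and 0.574.

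**Figure D4:**
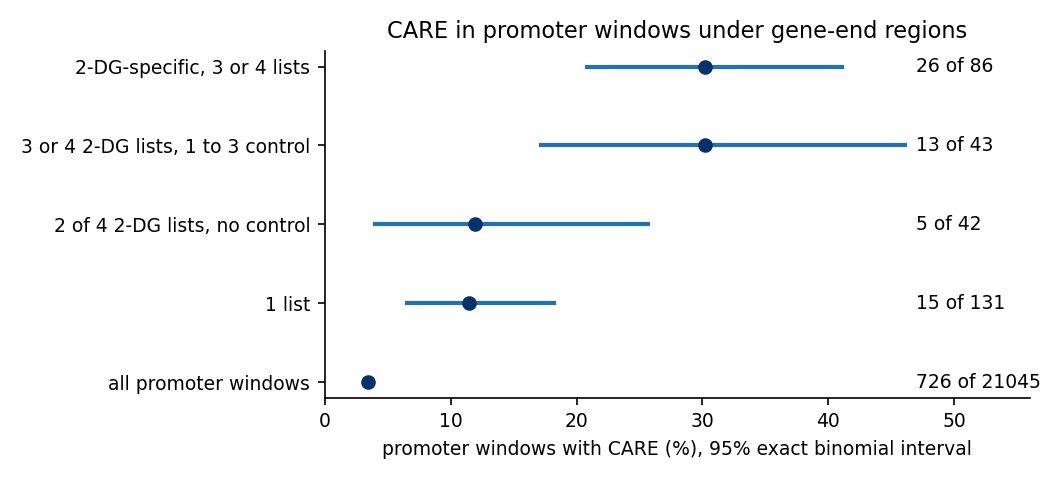
Points give the percentage of promoter windows with CARE (x axis) under each kind of gene-end region and over all promoter windows (y axis), with exact 95% binomial intervals as lines and counts at the right. The regions described here stand at 30.2%, with regions in 1 list at 11.5% and all windows at 3.45%.

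CARE also lay where the summits were. The 26 windows held 24 distinct CARE sites, 23 of them inside the region and 17 (70.8%) within 50 bp of the median summit, at a median distance of 30.25 bp. CCAAT boxes, the letters CCAAT bound by NF-Y, had 23 of 72 sites (31.9%) within 50 bp, at a median of 108.75 bp. ETS sites (CCGGAAGT) had 1 of 10, E-boxes (CACGTG) 0 of 9, cAMP response elements (TGACGTCA) 1 of 4 and AP-1 sites (TGANTCA) 2 of 5. Overlap between motifs was not removed.

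**Figure D5:**
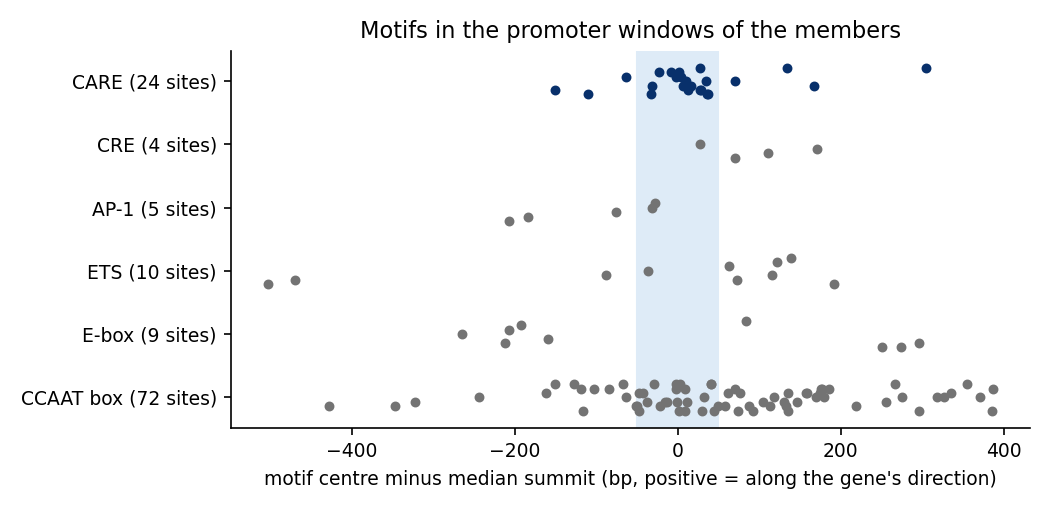
Each point is 1 motif site in a promoter window under the regions, at its distance from the median summit (x axis, bp, positive along the gene), in rows by motif (y axis). The shaded band marks 50 bp on either side of the summit and holds 17 of the 24 CARE sites and 23 of the 72 CCAAT boxes.

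The open base of CARE was C in 11 of the 24 sites (45.8%) and T in 8 (33.3%), with A in 3 and G in 2. Over the 694 CARE sites in all promoters, C made up 25.4% and T 22.0%. Of the 24 sites, 10 read in the direction of the gene and 3 lay after its start. The 24 regions, listed in full because they hold the motif and not by their values, lay at Arid5a, Atf3, Plekhh3, Jdp2, Tbce, Zbed3, Gm46390, Samd8, Pck2, Mbnl2, Vldlr, Got1, Sfxn4, Hspa14, Trib3, Hax1, Ensa, Anp32b, D5Ertd579e, Hsd17b13, Abraxas2, Echs1, Tubb3 and Rab39b. Those with the summit nearest to CARE were Sfxn4 at 1.5 bp, D5Ertd579e at 2.5 bp, Got1 at 4 bp, Rab39b at 6.5 bp and Hsd17b13 at 7.5 bp.

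Other motifs were searched on both strands of the same windows. CCAAT boxes stood in 40 of the 86 windows (46.5%) and in 38.5% of all, ETS sites in 12 (14.0%) and 5.20%, NRF1 sites in 4 (4.65%) and 1.34%, and cAMP response elements in 5 (5.81%) and 2.26%. E-boxes stood in 6 (6.98%) and 7.91%, and AP-1 sites in 5 (5.81%) and 7.04%. Windows can overlap: the 4 with NRF1 share 1 site, in the region at Mea1, and the 12 with ETS hold 10 distinct sites. The C/EBP palindrome (TTGCGCAA), the endoplasmic reticulum stress element and the unfolded protein response element (TGACGTGG) stood in 0 of the 86 windows, where their shares over all windows were 0.223%, 0.143% and 0.713%. At 86 windows, an absent motif of that rarity says only that these letters are not in these stretches.

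The genes beside the regions are given next by role. The lists of genes were written with earlier results of these data known, so their counts describe the regions and support no direction. Of 332 genes on the 23 lists, 28 had one of the regions, and 29 regions lay at such genes and 187 at none of them. Among all protein-coding genes the share was 1.17%.

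Of 33 well-known ATF4 targets, 17 had one of the regions: Aldh1l2, Atf3, Cebpb, Cebpg, Ddit4, Fgf21, Gadd45a, Gdf15, Jdp2, Pck2, Phgdh, Ppp1r15a, Sesn2, Stc2, Trib3, Vldlr and Xpot. Another 10 had a gene-end region in 3 or 4 2-DG lists that a control list also called, 3 had one in fewer lists and 3 had none. Without control 1 in the rule, 27 of the 33 targets had a chosen region, and without control 2, 3 or 4 the count was 17. The 10 included Asns, asparagine synthetase, Ddit3, which encodes CHOP, and Chac1, a glutathione-degrading enzyme. Xpot, the exportin for tRNA, is listed here to complete the count, with folds of 8.66, 5.69, 5.38 and 4.31.

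Among enzymes of serine, one-carbon and sulphur metabolism, 3 of 15 genes had one of the regions. Phgdh, the first enzyme of serine synthesis, had folds of 12.7, 12.4, 5.38 and 6.30, with its summit 721 bp after the start. Mthfd1l, which releases formate from mitochondria, had 21.7, 9.60, 4.89 and 5.31. Neither had a peak in the list titled 2-DG that the rule did not use, whereas Aldh1l2 did. Of the asparagine, proline, transaminase and phosphoenolpyruvate enzymes, 2 of 15 had one: Pck2 and Got1, the cytosolic aspartate aminotransferase, with 23.8, 15.3, 7.34 and 11.3. Another 5 of that list, Asns and Pycr1 among them, were recurrent with a control peak.

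Of 20 cytosolic aminoacyl-tRNA synthetases, which load amino acids onto tRNA, 2 had one of the regions and 10 had a recurrent region with a control peak. The 2 were among the weaker members: Rars, the arginine enzyme, had folds of 9.59 in 2-DG 1, 6.40 in 2-DG 2 and 3.65 in 2-DG 4, and Vars, the valine enzyme, had 5.57, 4.27 and 3.98 there. Neither had a peak in 2-DG 3. Of 17 mitochondrial synthetases, 0 had one of the regions.

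Amino acid transporters had the regions at 3 of 14 genes. Slc38a2 and Slc38a1, neutral amino acid transporters, had 17.6, 8.54, 7.34 and 7.96 and 14.5, 13.9, 5.38 and 6.97. Slc6a9, the glycine transporter GLYT1, had 2 regions. The one 1279.5 bp after the start was called in 4 lists, with 19.8, 9.25, 5.87 and 4.31. The one 191 bp after the start was called in 3, with 13.0 in 2-DG 1, 10.7 in 2-DG 2 and 3.65 in 2-DG 4.

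bZIP factors of the stress response, the family of ATF4 itself, had the regions at 5 of 26 genes. Atf3, a repressor and activator induced by stress, had folds of 22.6, 13.2, 10.8 and 8.63. Cebpg, a C/EBP that pairs with ATF4, had 19.8, 13.9, 5.87 and 8.63, and Cebpb had 15.2, 12.8, 4.40 and 7.30 with its summit 292 bp inside the finish of the gene.

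Jdp2, which dimerises with JUN proteins, had 14.8, 12.4, 5.87 and 6.30. Atf6, a membrane-bound sensor of the endoplasmic reticulum, had 13.9, 10.7, 4.89 and 6.64. Atf5 and Ddit3 of the same list were recurrent with a control peak.

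The brakes on mTORC1 and translation had the regions at 2 of 14 genes. Besides Ddit4 it was Sesn2, a leucine sensor that restrains mTORC1, with folds of 20.4, 12.8, 9.78 and 9.95 and its summit 519.5 bp after the start. Of the kinases and phosphatase subunits of eIF2, 1 of 10 had one of the regions. It was Ppp1r15a, which encodes GADD34, the subunit that reverses eIF2 phosphorylation, with 6.19 in 2-DG 1, 6.05 in 2-DG 2 and 4.31 in 2-DG 4. Its summit lay 19 bp after the start.

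Among chaperones and degradation genes of the endoplasmic reticulum, 2 of 22 had one. Hspa5, which encodes the chaperone BiP, had 33.7 in 2-DG 1, 8.18 in 2-DG 2 and 4.89 in 2-DG 3, with its summit 1852 bp before the start, and 2-DG 4 called none. On the CHOP and cell death list 2 of 13 had one, Trib3 and Gadd45a, a growth arrest gene with 14.8, 5.34 and 6.64 in 2-DG 1, 2 and 4. Becn1, a core autophagy gene, was 1 of 16 on its list, with 8.97, 7.47 and 3.91 in 2-DG 1 to 3.

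Secreted stress factors had the regions at 3 of 10 genes. Fgf21, a hormone of fasting and stress, shared its region with Fut1, with 23.2, 16.4, 5.38 and 10.9. Gdf15, a stress cytokine that lowers appetite, had 23.5, 12.4, 4.89 and 6.97, and Stc2, stanniocalcin 2, had 15.2, 12.8, 6.85 and 5.97. All 3 summits lay over 1000 bp from the gene end.

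None of the 20 glycolysis genes, 24 N-linked glycosylation genes, 25 ribosomal protein genes and 16 activity-regulated genes had one of the regions. Lists of this size hold few genes, and the share over all genes was 1.17%. For the cells, Tubb3, the neuronal tubulin, was 1 of 20 neuronal markers with one. Its region, shared with Mc1r, had 11.1, 9.96, 6.36 and 4.65. The astrocyte, oligodendrocyte, microglial, progenitor and vascular marker lists, 8 genes each, had 0. Peak lists do not measure which cells were present, so the labelled cell type was not tested with them.

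The highest-ranked regions on either side of the rule's thresholds are given next. Among the 107 regions in 3 of 4 2-DG lists, the top 3 all lacked a peak in 2-DG 3. Pla1a, a phospholipase gene, had folds of 29.1 in 2-DG 1, 18.1 in 2-DG 2 and 7.63 in 2-DG 4. Gys1, muscle glycogen synthase, with Ruvbl2 had 13.9, 12.8 and 8.30 there, and Hspa9, a mitochondrial chaperone, had 15.8, 9.96 and 7.96. Among the 198 gene-end regions in 2 of 4 2-DG lists and no control, the top 3 had peaks in 2-DG 1 and 2-DG 2. Gm39701 had 12.4 and 11.7, Dsc3 13.3 and 9.60 and Spink5 10.5 and 9.60.

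Control 1 alone kept 3 of the strongest gene-end regions out. Chac1 had folds of 142, 128, 69.0 and 66.7 in 2-DG 1 to 4 and 13.8 in control 1. Ppp1r15b, which encodes the constitutive eIF2 phosphatase subunit, had 112, 86.1, 29.3 and 42.8, with 17.8 in control 1, and Psat1, a serine synthesis enzyme, had 96.2, 78.3, 25.4 and 43.5, with 7.27. In all, 52 gene-end regions were in 3 or 4 2-DG lists and exactly 1 control list. In each 2-DG list the folds at Chac1, Ppp1r15b and Psat1 were above that of every one of the 216 regions. Of the 216, 1 region, at Zfp385b, had a control peak within 500 bp of it.

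The 2 lists whose labels conflict were not used by the rule. The list titled control is described as 2-DG, and the list titled 2-DG is described as control. With its 4335 peaks, the former touched 0 of the 216 regions, which has an exact 95% binomial interval of 0 to 1.69%. With its 7847 peaks, the latter touched 128 (59.3%, interval 52.4 to 65.9%). This list touched 95 of the 109 regions in 4 of 4 lists (87.2%) and 33 of the 107 in 3 of 4 (30.8%).

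For scale, the list titled 2-DG touched 13.1% of the 198 gene-end regions in 2 of 4 2-DG lists and no control, and 5.24% of the 1680 in 1 list. It touched 83.3% of the 102 that also had 1 to 3 controls, where the list titled control touched 42.2%. Over the 44 gene-end regions in all 8 lists, both touched nearly all, 100% and 97.7%. With 1 list of each kind there is no test, and the treatment these samples received was not settled by these values. Regions with CARE on a promoter were touched by the list titled 2-DG 15 times of 24 (62.5%), and those without CARE 26 times of 49 (53.1%). These 2 sets differ in recurrence: 13 of the 24 (54.2%) and 18 of the 49 (36.7%) were in 4 of 4 lists. Regions in 4 of 4 lists were touched more often, as given above, so the 2 shares do not compare like sets.

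Each 2-DG list was also compared with regions that it had not helped to choose, by leaving it out of the rule. The regions chosen without it numbered 109 for 2-DG 1, of which it touched 108 (99.1%), and 113 for 2-DG 2, of which it touched 109 (96.5%). They numbered 196 for 2-DG 3, of which it touched 109 (55.6%), and 124 for 2-DG 4, of which it touched 109 (87.9%). Without 2-DG 1, 2 or 4 the rule asks for all 3 remaining lists, 2-DG 3 among them, and so keeps fewer regions. Apart from changes in merging, these numbers follow from the counts of regions that each list lacked, given above. They restate those counts and are no separate support.

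One comparison of treatments used no region chosen by the rule. In each list, promoter windows under a peak outside the 216 regions were counted, and the share with CARE was taken as 1 value. By the rule no control list has a peak in those regions, so leaving them out took peaks from the 2-DG lists only. It was 22.8% of 79 windows in control 1, 5% of 40 in control 2, 7.14% of 14 in control 3 and 2.56% of 39 in control 4. After 2-DG it was 23.0% of 191, 22% of 150, 39.2% of 51 and 30.6% of 72 in 2-DG 1 to 4. Control 1 stood within the range of the 2-DG lists, and the other 3 controls stood below all of them.

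The means were 9.37% ± 9.13 (SD, n = 4) in control and 28.7% ± 7.98 (SD, n = 4) with 2-DG, a difference of 19.3 percentage points. In a two-sided exact permutation test over the 70 assignments of the 8 lists, p was 0.0571, where the smallest this design allows is 0.0286. The difference did not pass 0.05. Without control 1 it was 20.4 points (exact permutation p = 0.0286), and over the 8 lists left out in turn the exact permutation p ran from 0.0286 to 0.0857. With the 2 conflicting lists added by description the difference was 11.1 points (exact permutation p = 0.246), and added by title 21.2 points (exact permutation p = 0.0159). Leaving out or adding lists changes the number of assignments, so these p-values come from sets of different size. The number of windows under a peak differed from 14 to 191 between lists.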

How the data were processed

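Reads were processed with BWA, Picard, MACS2 and DiffBind and the mm10 build, per the submitters' processing notes, which give no versions. The deposited lists are narrowPeak tables of 1 sample each, per the file headers and peak names. In them the authors give each peak a fold over local background (a ratio), −log10 p and q values, and a score, all used only within a list. Lists give no read counts, and the labels' extraction protocol is one for RNA. Peaks here are distinct intervals placed at their highest summit. The members and the gene and motif lists were chosen with earlier results of these data known. Named regions are the 15 with the highest mean percentile of fold in 4 of 4 lists, up to 8 genes of each gene list, the 5 lowest, and 3 beside each threshold. Gene extents and promoter windows are RefSeq's for GRCm38.p6, with no window on chromosome 18, and 210 of the 253 genes had one. Starts in the 2 tables can differ. Intervals are exact binomial at 95%, and the exact permutation test was written in Python 3.11.15 with scipy 1.17.1. Alternatives covered peak filters, window width, the rule's counts, each list left out, conflicting lists and the motif. Region selection and the motif search were checked on simulated lists and sequences, and the permutation test was not. The simulated regions were planted in all 4 treated lists, so recovery of regions in 3 of 4 lists was not checked. Only CARE was planted in the sequences.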

Additional observations from a re-analysis of the deposited data

Results flagged for a closer look

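Over the 4 2-DG lists, 2-DG 3 had a peak in 129 of the 216 regions, far below the 201 to 215 of the other 3. The fold at Slc38a2 stood apart in 2-DG 1, at 17.6 against 7.34 to 8.54 in the others, and so did the fold at Echs1 and Paox in 2-DG 1, at 10.8 against 3.91 to 4.98. These 3 came from 44 groups of 4 values screened for a sample far from the rest, where chance gives about 1 in 20, or 2.2. The list with a 2-DG title but a control description, not used by the rule, had a peak in 128 of the 216 regions, while the list titled control had 0.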

How the results depend on the processing

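Gene-end windows of 500 bp kept 125 regions at 137 genes, and requiring 4 of 4 2-DG lists kept 109 regions at 128 genes. Allowing 1 control list raised the ATF4 targets from 17 to 27. Adding the lists with conflicting labels by description left 88 regions, 102 genes and 3 ATF4 targets, with 9 of the 46 named regions kept, since the list titled 2-DG then counts as a control. Equal numbers of top peaks per list kept 38 of the 46 named regions. Lost were those at Ppp1r15a, Becn1, Rars, Vars, Slc4a10, Uqcrc2, Echs1 and the nearer of the Slc6a9 regions. A −log10 q of at least 2 kept 43 of the 46, and of at least 5 kept 35, without Hspa5, Niban1 and either Slc6a9 region. Gene-end windows of 500 bp kept 27, without Rcc2, Tmx3, Cd82, Fgf21, Stc2, Jdp2 and Gdf15 among others. CARE stood in 14.0% of windows with C at the open base and in 41.3% of windows that hold a summit. For CARE under other peaks, equal numbers of top peaks gave 28.1 points (exact permutation p = 0.0286) and adding conflicting lists by title 21.2 points (exact permutation p = 0.0159), whereas adding them by description gave 11.1 points (exact permutation p = 0.246) and C at the open base 10.2 points (exact permutation p = 0.0857). Leaving out each list in turn gave 109 to 256 regions, 128 to 300 genes, 29.6 to 36.8% of windows with CARE, 15 to 27 ATF4 targets and differences of 16.2 to 21.4 points, with exact permutation p of 0.0286 without control 1, 0.0857 without 2-DG 3 or 2-DG 4 and 0.0571 without each other list. Without control 1 there were 256 regions and 27 ATF4 targets, and without 2-DG 1, 2 or 4 there were 109, 113 and 124 regions, where all 3 remaining lists, 2-DG 3 among them, are then required. Without 2-DG 3 there were 196. With consecutive titles taken as pairs, as a replicate block, the difference was 19.3 points (exact permutation p = 0.125, the smallest that the block allows). Nothing in the labels says that these numbers pair cultures. Settings that leave out or add lists, or pair them, use other numbers of assignments than the main test. Of the values of these 5 results under the alternatives, 78 stayed, 17 moved, and 3 of the permutation test came to pass 0.05. Staying meant within 1.5 times for counts and within 20.8 to 41.1% for the share with CARE. For the permutation test it meant the same side of 0.05. The 78 include values of settings named above. They also include a setting in which peaks touch a region by a set part of the shorter. That setting is the main rule by construction and is no check. Joining peaks only where each pair overlaps by a set part of the shorter, chosen after seeing the data, gave 215 regions. The cause of the other changes was not tested. Unknown depth limits every absence of a peak.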
